A study of Homo sapiens with 4 samples.

Results

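The annexin family is described here in the human colorectal carcinoma line HCT116, through the 19 probe sets that the array's annotation gives to only 1 of 10 annexin symbols. The 10 genes, of 19775 genes with a value, are ANXA1, ANXA2, ANXA3, ANXA4, ANXA5, ANXA6, ANXA7, ANXA10, ANXA11 and ANXA13. The family was selected on the deposited intensities themselves: it was chosen by the wide differences of ANXA10 among the arrays, so the levels of ANXA10 are given as a description and without a test. Messenger RNA was measured on 4 Affymetrix arrays: 1 of HCT116 cells carrying KSR1 hairpin #2, 1 with KSR1 hairpin #1, 1 with the non-targeting hairpin vector shCTRL and 1 of untransfected cells. The 3 hairpin lines had been lipofected and selected as clones with puromycin, which the untransfected cells lack. All 4 samples were grown with 10% fetal bovine serum. KSR1 is a scaffold of the RAF, MEK and ERK kinase cascade. Each line had a single array, and whether that array came from 1 clone or several is not stated, so hairpin, vector, selection, clone, culture and array cannot be told apart.

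Annexins are cytosolic proteins that attach to negatively charged phospholipids when calcium rises. Their conserved core of annexin repeats binds the membrane, and a variable N-terminal part binds partners such as S100 proteins. They take part in membrane repair, exocytosis and endosome traffic, and ANXA10 is known as a member with weak calcium binding that is abundant in normal gastric epithelium.

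The sequences before the start of 4 annexin genes are shown because ANXA10, ANXA5 and ANXA3 varied most among the arrays on the log2 scale, and because ANXA1 shares 2 features with ANXA10. They are the 250 bases before each start in RefSeq's promoter table for GRCh38.p14, printed 5′ to 3′ on the gene's own strand: ANXA10 at chr4:168092287-168092536 and ANXA3 at chr4:78551520-78551769, both on the plus strand, ANXA5 at chr4:121696981-121697230 on the minus strand, and ANXA1 at chr9:73151615-73151864 on the plus strand. Capitals mark each CG and each TATAAA.
ANXA10: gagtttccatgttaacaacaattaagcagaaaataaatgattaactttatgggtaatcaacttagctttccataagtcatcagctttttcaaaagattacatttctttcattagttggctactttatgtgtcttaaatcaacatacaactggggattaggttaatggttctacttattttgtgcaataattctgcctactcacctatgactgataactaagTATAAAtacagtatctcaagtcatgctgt
ANXA1: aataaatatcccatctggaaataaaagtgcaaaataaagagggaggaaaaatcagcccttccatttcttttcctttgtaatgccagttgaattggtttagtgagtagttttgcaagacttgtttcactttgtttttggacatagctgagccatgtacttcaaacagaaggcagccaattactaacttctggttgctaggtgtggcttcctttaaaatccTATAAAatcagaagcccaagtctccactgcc
ANXA3: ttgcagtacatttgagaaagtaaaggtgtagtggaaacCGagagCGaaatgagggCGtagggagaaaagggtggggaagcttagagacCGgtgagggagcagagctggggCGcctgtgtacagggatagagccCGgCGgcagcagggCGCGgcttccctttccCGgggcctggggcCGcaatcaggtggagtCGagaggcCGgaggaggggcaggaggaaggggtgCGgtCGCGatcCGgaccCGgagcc
ANXA5: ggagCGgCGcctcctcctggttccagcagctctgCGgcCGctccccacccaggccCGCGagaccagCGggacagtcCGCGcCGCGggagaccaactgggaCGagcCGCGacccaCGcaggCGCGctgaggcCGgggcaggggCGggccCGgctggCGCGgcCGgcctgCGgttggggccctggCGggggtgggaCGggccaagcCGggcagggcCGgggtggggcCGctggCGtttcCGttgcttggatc
The ANXA10 and ANXA1 windows held 0 CG dinucleotides, as did 6.06% of the 35116 promoter windows in the table, whose median was 11. The ANXA3 window held 18 and the ANXA5 window 31. TATAAA, searched on both strands, began 29 bases before the start in ANXA10 and 31 bases before it in ANXA1. It was held by 10.7% of all windows, and also by the ANXA2 window and an ANXA11 window, which are not shown. The AP-1 motif TGANTCA, bound by FOS and JUN proteins and held by 6.57% of windows, was in none of these 4. Of the windows not shown, that of ANXA2 held it. The ETS core GGAA, which 92.7% of windows hold, had 2 matches in ANXA10, 5 in ANXA1, 5 in ANXA3 and 2 in ANXA5, both strands counted. These are matches of letters and not measured binding.

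Values are the deposited intensities on a linear scale. Differences are in log2(intensity + 16), a scale that understates differences of dim probe sets, and 1 log2 unit is 2-fold. A gene took its brightest probe set, and 12468 genes whose mean log2 value reached 6.08, the median of all probe sets, were analysed. Of the members 9 passed, and ANXA13 did not. Array medians lay between 50.7 and 52.0. The targeted KSR1 was at 171 with hairpin #2 and 141 with hairpin #1, against 211 in shCTRL and 209 in untransfected cells, and its 3 dimmer probe sets lay between 27.8 and 60.4. Epithelial EPCAM lay between 7855 and 8119 and KRT18 between 12123 and 16755, while the colon markers CDH17, GPA33 and LGALS4 were under the filter value. Summed over the list, 10 fibroblast markers lay between 619 and 698, 8 leukocyte markers between 189 and 218, and 5 endothelial markers between 172 and 191. The sum of 11 colon epithelial markers lay between 35129 and 45329. Within the fibroblast sum, COL1A1 alone had between 372 and 433.

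ANXA10 was high in untransfected cells and lower in all 3 hairpin lines, to very different extents. Its probe set, the only one for the gene, had an intensity of 1013 with hairpin #2, 66.3 with hairpin #1 and 208 in shCTRL, against 4170.1 in untransfected cells. The 4 arrays therefore ran in the order untransfected, hairpin #2, shCTRL, hairpin #1, and shCTRL lay between the KSR1 hairpins. The hairpin #1 value was close to the array median of 50.7 and is not told apart from background, so the intensity in untransfected cells was at least 62.9 times that with hairpin #1. In these bulk arrays fewer cells expressing the gene and less RNA per cell cannot be told apart.

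Against untransfected cells, the ANXA10 log2 difference was -2.02 with hairpin #2 and -4.22 in shCTRL, and it was -5.67 with hairpin #1, a size that depends on the pseudocount. No gene of the 12468 differed more in size than ANXA10 in the comparisons of hairpin #1 and of shCTRL with untransfected cells. A 2-fold lower value was found for 0.987% of genes with hairpin #2, 0.505% with hairpin #1 and 0.369% in shCTRL. These 3 comparisons share the untransfected array.

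Set against shCTRL, ANXA10 went opposite ways with the KSR1 hairpins. It was 4.86 times as bright with hairpin #2 as in shCTRL, a log2 difference of 2.20. With hairpin #1 it had at most 31.8% of the shCTRL intensity, and the log2 difference lay between -1.64 and -1.06 by pseudocount, with -1.45 at a pseudocount of 16. Of all genes 0.979% were at least 2-fold higher with hairpin #2 than in shCTRL, and 0.433% were at least 2-fold lower with hairpin #1. Between the hairpins, ANXA10 with hairpin #2 exceeded hairpin #1 by 3.05 to 3.91 log2 units by pseudocount, with 3.64 at a pseudocount of 16, and 1.07% of genes were at least 2-fold higher in that direction. Its range over the 4 arrays, 5.67, was exceeded by 4 genes, and the median range of all genes was 0.30.

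**Figure D1:**
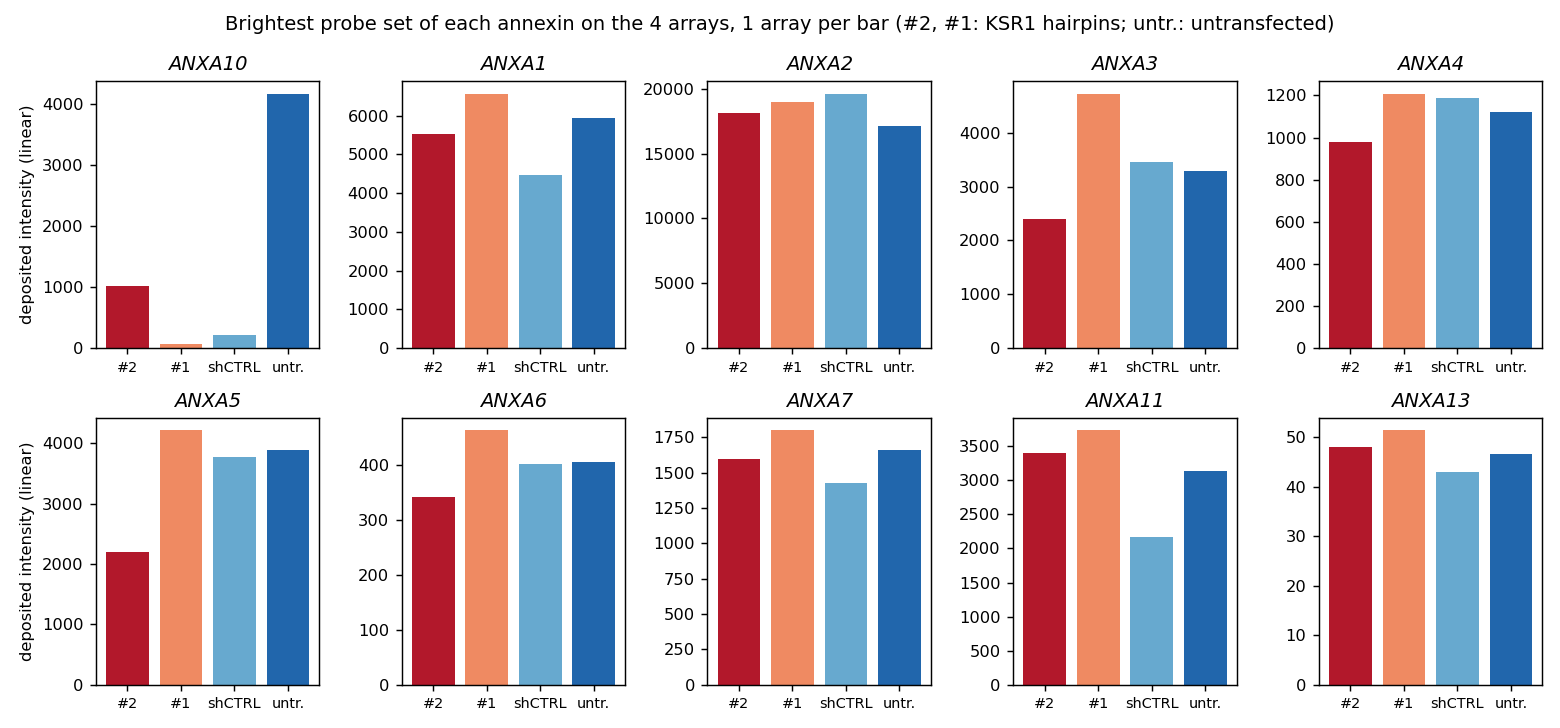
Deposited linear intensity of the brightest probe set of each annexin, on an axis of its own that starts at 0, with 1 bar for each array: KSR1 hairpin #2, KSR1 hairpin #1, shCTRL and untransfected cells. ANXA10 spans 66.3 to 4170.1, whereas each other member stays within a factor of 1.96 between its lowest and highest array, and 7 of the 8 other members analysed are highest with hairpin #1.

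ANXA5 and ANXA3 were lowest with hairpin #2, as were ANXA4 and ANXA6. ANXA5, the protein used as a stain for dying cells, had 2205 with hairpin #2 and 4214 with hairpin #1, against 3777 in shCTRL and 3885 in untransfected cells. Only the hairpin #2 array stood apart, with 52.3% of the hairpin #1 intensity. The log2 difference of hairpin #2 was -0.93 from hairpin #1, -0.77 from shCTRL and -0.81 from untransfected cells. As large a difference in either direction was seen for 2.13%, 3.55% and 3.55% of all genes in the same comparisons.

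ANXA3, an annexin found in many epithelial cancers, had 2405 with hairpin #2 and 4722 with hairpin #1, against 3449 in shCTRL and 3290.5 in untransfected cells. The KSR1 hairpin arrays lay on opposite sides of both other arrays, which differed by 0.07 log2 units. Hairpin #2 differed from hairpin #1 by -0.97 for ANXA3, a size reached by 1.91% of genes. Of the member differences short of 2-fold it was the nearest to that line. Of those past 2-fold the nearest was the -1.45 of ANXA10 for hairpin #1 against shCTRL. ANXA3, ANXA5 and ANXA10 all lie on chromosome 4, and ANXA10 had the opposite direction between the hairpins.

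ANXA1, a glucocorticoid-induced annexin that acts through formyl peptide receptors, was lowest in shCTRL. Its intensity was 5537 with hairpin #2 and 6564 with hairpin #1, against 4480.4 in shCTRL and 5936 in untransfected cells. The untransfected array lay between the KSR1 hairpins, so the groups overlapped. The difference of hairpin #1 from shCTRL was 0.55, as large as in 3.38% of genes, and that of shCTRL from untransfected cells was -0.40. A second ANXA1 probe set was dim, between 17.3 and 25.05. Of its receptors, FPR1 alone reached the filter value, at 71.9 with hairpin #2 and 58.0 with hairpin #1, against 61.4 in shCTRL and 60.3 in untransfected cells.

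ANXA2, which pairs with S100A10 at the plasma membrane and binds plasminogen, varied least of the members analysed. Its brightest probe set had 18109 with hairpin #2 and 18995 with hairpin #1, against 19619 in shCTRL and 17124 in untransfected cells. The highest array was shCTRL and the lowest the untransfected one, a log2 range of 0.20. The other bright ANXA2 probe sets had ranges of 0.21 and 0.25 with the same highest and lowest array. The highest value of any probe set lay between 25716 and 26251 on the 4 arrays. A probe set for the processed pseudogene ANXA2P2 followed ANXA2, with 4934 and 5167 for hairpins #2 and #1, against 5454 in shCTRL and 4852 in untransfected cells. Signals of such near-identical copies cannot be told apart.

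The S100 partners had patterns of their own. S100A10, the ANXA2 partner, had 6983 with hairpin #2 and 4968 with hairpin #1, against 4221 in shCTRL and 6464 in untransfected cells. It was thus lowest in shCTRL, the array where ANXA2 was highest. S100A11, which binds ANXA1, had 1582 with hairpin #2 and 1164 with hairpin #1, against 1180.0 in shCTRL and 1287 in untransfected cells. S100A6, a partner of ANXA2 and ANXA11, stayed between 6867 and 7375.

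The S100 genes with the widest ranges were S100P, S100A2, S100A4 and S100A14. S100P, a calcium-binding protein found in many gastrointestinal tumours, had 234 with hairpin #2 and 40.8 with hairpin #1, against 49.5 in shCTRL and 52.9 in untransfected cells. S100A2, an epithelial S100 gene, had 1169.9 with hairpin #2 and 337 with hairpin #1, against 645 in shCTRL and 579.7 in untransfected cells. Both were highest with hairpin #2. S100A4, a motility-related gene, stood apart in untransfected cells, with 6937, 7539.6 and 7393 in hairpin #2, hairpin #1 and shCTRL cells against 3317 there. S100A14 was lowest in shCTRL, at 1847 with hairpin #2 and 1583.5 with hairpin #1, against 1043 in shCTRL and 1748 in untransfected cells. Of the 21 genes in the list, which includes the binding protein S100PBP, 12 were analysed. With hairpin #2, 7 were higher and 5 lower than with hairpin #1, with a median of 0.13, against 51.3% higher over all genes. limma called 0 of these 12. Among those analysed, S100A5 was the only S100 gene with both KSR1 hairpin arrays above both others. None lay below both others, against 22.5% of all genes above and 18.4% below. S100A5 had 84.4 and 87.7 for hairpins #2 and #1 against 51.5 and 52.9 for shCTRL and untransfected cells, and it was chosen after its values were seen.

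ANXA11 and ANXA7 carry long N-terminal parts that bind the calcium sensors PDCD6 and sorcin. ANXA11, which tethers RNA granules to lysosomes, had 3404 with hairpin #2 and 3729 with hairpin #1, against 2169 in shCTRL and 3135 in untransfected cells. Both KSR1 hairpin arrays lay above both others, but the gap to untransfected cells was 0.12 log2 units and the low array was shCTRL, 0.53 below untransfected cells. Over both hairpins against both other arrays ANXA11 was 0.45 log2 units higher (SE 0.20), which did not pass limma (adjusted p = 0.669). The second ANXA11 probe set had 186.8 and 250.4 for hairpins #2 and #1 against 172 and 175 for shCTRL and untransfected cells, with shCTRL differing from untransfected cells by -0.02 log2 units there. On the third, between 92.6 and 104, the highest array was shCTRL.

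ANXA7, also called synexin, was likewise highest with hairpin #1 and lowest in shCTRL on its brightest probe set, with 1594 and 1797 for hairpins #2 and #1 against 1428 in shCTRL and 1658 in untransfected cells. Here untransfected cells lay between the KSR1 hairpins, so the groups overlapped. Its second probe set had 1249 and 1451 for the hairpins against 1114 and 1191 for shCTRL and untransfected cells, with both hairpin arrays above both others. Of 17 penta-EF-hand and ESCRT partner genes 14 were analysed, 5 lay above both other arrays in both KSR1 hairpin arrays and 0 below, against 22.5% and 18.4% of all genes, 0 were called by limma, and the median difference was 0.07, against 0.02 over all genes. The widest range was that of the penta-EF-hand gene GCA, with 356 and 240.2 for hairpins #2 and #1 against 335 in shCTRL and 200.1 in untransfected cells.

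ANXA4, an epithelial annexin of secretory membranes, had 980.2 with hairpin #2 and 1208 with hairpin #1, against 1189 in shCTRL and 1124 in untransfected cells. Its second probe set also had its lowest value with hairpin #2, at 731, but its highest in shCTRL, at 939. ANXA6, which links membranes to cholesterol handling, had 340.5 with hairpin #2 and 462 with hairpin #1, against 400.4 in shCTRL and 404 in untransfected cells. The hairpin #2 array was lowest for both genes, and the log2 difference from hairpin #1 was -0.30 for ANXA4 and -0.42 for ANXA6. A second ANXA6 probe set was dim, between 17.0 and 18.8, and with the mean over both the ANXA6 difference was -0.229. ANXA13, an annexin of intestine and kidney, lay at 48.1 and 51.3 with the hairpins and at 43.0 and 46.6 in shCTRL and untransfected cells, at the level of the array medians.

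Across the family, the other members had the same direction of difference between the KSR1 hairpins. All 8 analysed members other than ANXA10 were lower with hairpin #2 than with hairpin #1, by 0.07 to 0.97 log2 units and with a median of -0.27, while over all genes the median was 0.01 and 51.3% were higher. None of the 8 was 2-fold lower, as 0.642% of genes were. Hairpin #1 was the highest array for 7 of the 8 and for 23.3% of all genes, the exception being ANXA2. For ANXA4 it exceeded shCTRL by only 0.02 log2 units, and that order changed with the processing. All 8 were also higher with hairpin #1 than in untransfected cells, by 0.10 to 0.52, against 53.8% of all genes, and this comparison shares the hairpin #1 array. These counts are descriptions of single arrays with no replicate check.

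**Figure D2:**
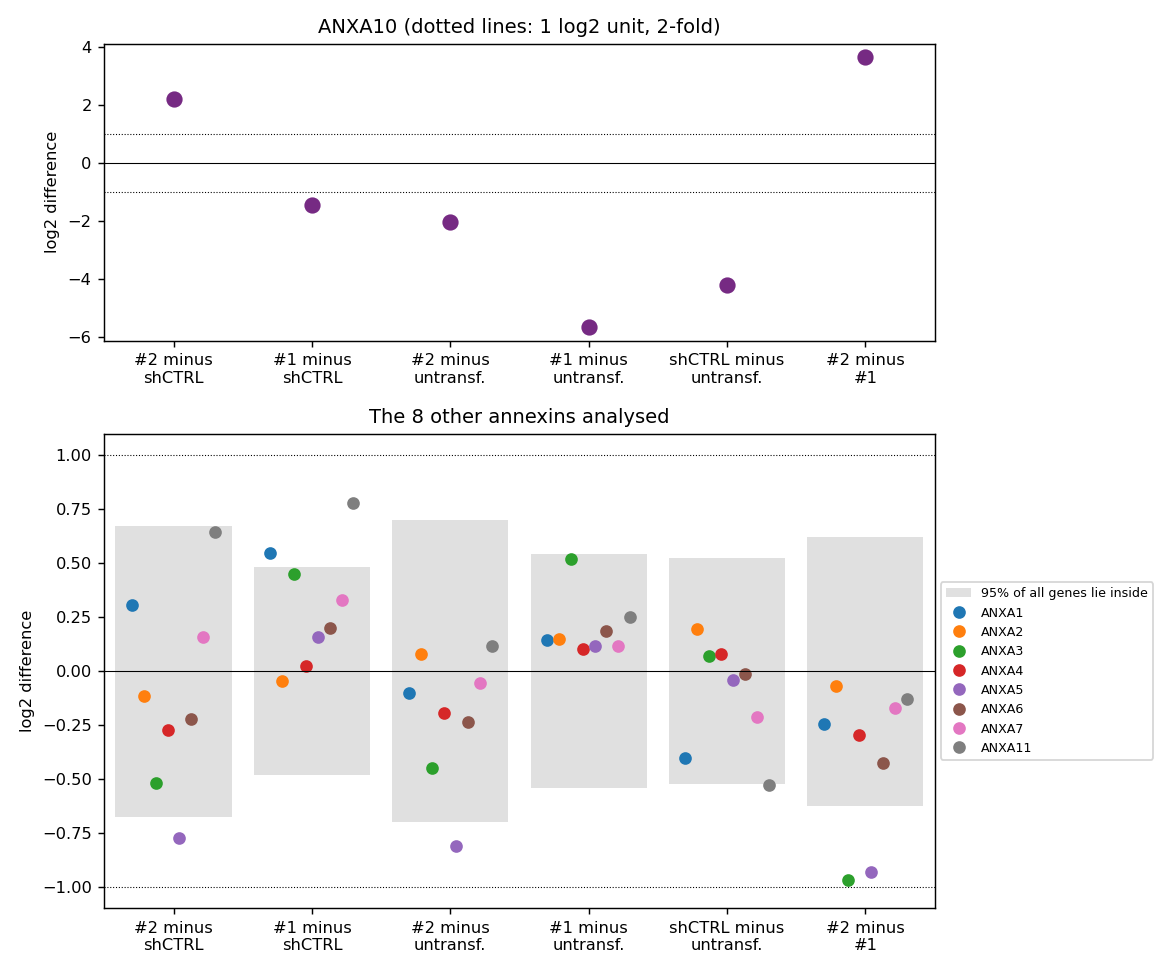
Log2 difference in each of the 6 pairs of arrays for ANXA10 (top) and the 8 other annexins analysed (bottom), with hairpin #2 and hairpin #1 as #2 and #1, dotted lines at 1 log2 unit and grey boxes holding 95% of all genes. ANXA10 lies outside the dotted lines in all 6 pairs and no other annexin does, and in hairpin #2 minus hairpin #1 all 8 others lie below 0.

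Both KSR1 hairpin arrays were also set against both other arrays. This contrast pools shCTRL with untransfected cells, which lack vector and selection, so it does not isolate KSR1 depletion. Of the 9 members analysed, 1 lay above both others in both hairpin arrays, which was ANXA11, and 0 lay below, while 22.5% of all genes lay above and 18.4% below. None was separated by 2-fold, as 0.0241% of genes were above and 0.0321% below. This count changed with the arrays kept. Without hairpin #2, 7 members lay above and 1 below, and without hairpin #1, 1 lay above and 4 below. Without shCTRL, 2 lay above and 1 below, and without the untransfected array, 3 lay above and 1 below. With 1 array left out the rule is easier to meet, and the share of all genes meeting it was not counted. These counts therefore cannot be set against the 22.5% and 18.4%, nor read as a trait of the members. A limma model with 2 residual degrees of freedom called 0 of 12468 genes at an adjusted p under 0.05, a share of 0.0%, with 882 at an unadjusted p under 0.05 (7.07%). Of the 8 members other than ANXA10, 0 were at that unadjusted level, and their limma adjusted p lay between 0.669 and 1.0. The largest fitted differences after ANXA11 were -0.33 for ANXA5 (SE 0.32, limma adjusted p = 0.78) and 0.22 for ANXA1 (SE 0.18, limma adjusted p = 0.733), and the ANXA1 value was 0.0222 without the shCTRL array. The error in this model comes from the distance of the hairpins from each other and of shCTRL from untransfected cells. limma draws it toward a variance shared over all genes, with 2.59 prior degrees of freedom. Repeat cultures of 1 line do not enter it.

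Annexin genes outside the 10 members had low values apart from ANXA2P2. ANXA9 had 66.8 and 65.3 with hairpins #2 and #1 against 55.3 and 50.3 in shCTRL and untransfected cells on its brightest probe set. Its other probe set had 92.2 and 65.9 against 39.0 and 34.6, so both hairpin arrays were above both others on each. The limma adjusted p for ANXA9 was 0.668 on the brightest probe set, whose values were near the array medians. ANXA2P1 and ANXA2P3, further pseudogenes of ANXA2, lay between 99.4 and 131.7, with both hairpin arrays just below both others. Of all genes, 22.5% lay above both others in this way and 18.4% below. ANXA2R, named as an ANXA2 receptor, was under the filter value, between 42.4 and 56.4.

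The genes nearest to ANXA10 were found by the Euclidean distance between mean-centred log2 values over the 4 arrays. The values were not scaled, so this distance favours genes of wide range. They were VCAN, a matrix proteoglycan, at a distance of 2.33, followed by the membrane carboxypeptidase CPM at 2.85, the nuclear receptor PPARG at 2.88, the acyltransferase AGPAT4 at 2.90, the RAS-inducible TMEM158 and the epithelial transcription factor GRHL3 at 2.96 each, the SAM-domain gene SAMD5 at 3.00 and the CSK-binding adaptor PAG1 at 3.01. The median distance of all genes was 4.33 and that of the nearest other annexin 4.32. A gene that is flat over the arrays lies near that distance whatever its pattern, so it is no measure of likeness. The Pearson correlation of the 8 genes with ANXA10 over the 4 arrays lay between 0.81 for CPM and 0.945 for SAMD5. All 8 were lower in shCTRL than in untransfected cells and higher with hairpin #2 than with hairpin #1, and 2 of them, TMEM158 and PAG1, had the same order of the 4 arrays as ANXA10, which 2.73% of all genes shared. The likeness comes from 4 arrays and chose the genes, so none of it is a test.

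Within this set the hairpin #2 array behaved in different ways. PPARG had 1188 with hairpin #2 and 314 with hairpin #1, against 278 in shCTRL and 1004 in untransfected cells. GRHL3 had 206.6 with hairpin #2 and 45.4 with hairpin #1, against 44.6 in shCTRL and 162 in untransfected cells. Both were brighter with hairpin #2 than in untransfected cells, unlike ANXA10. CPM had 47.5, 45.3 and 42.2 with hairpin #2, hairpin #1 and shCTRL, against 331 in untransfected cells. It was near the array medians in all 3 hairpin lines. VCAN had 561 with hairpin #2 and 253 with hairpin #1, against 187 in shCTRL and 1584 in untransfected cells, with hairpin #2 between the extremes as for ANXA10.

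**Figure D3:**
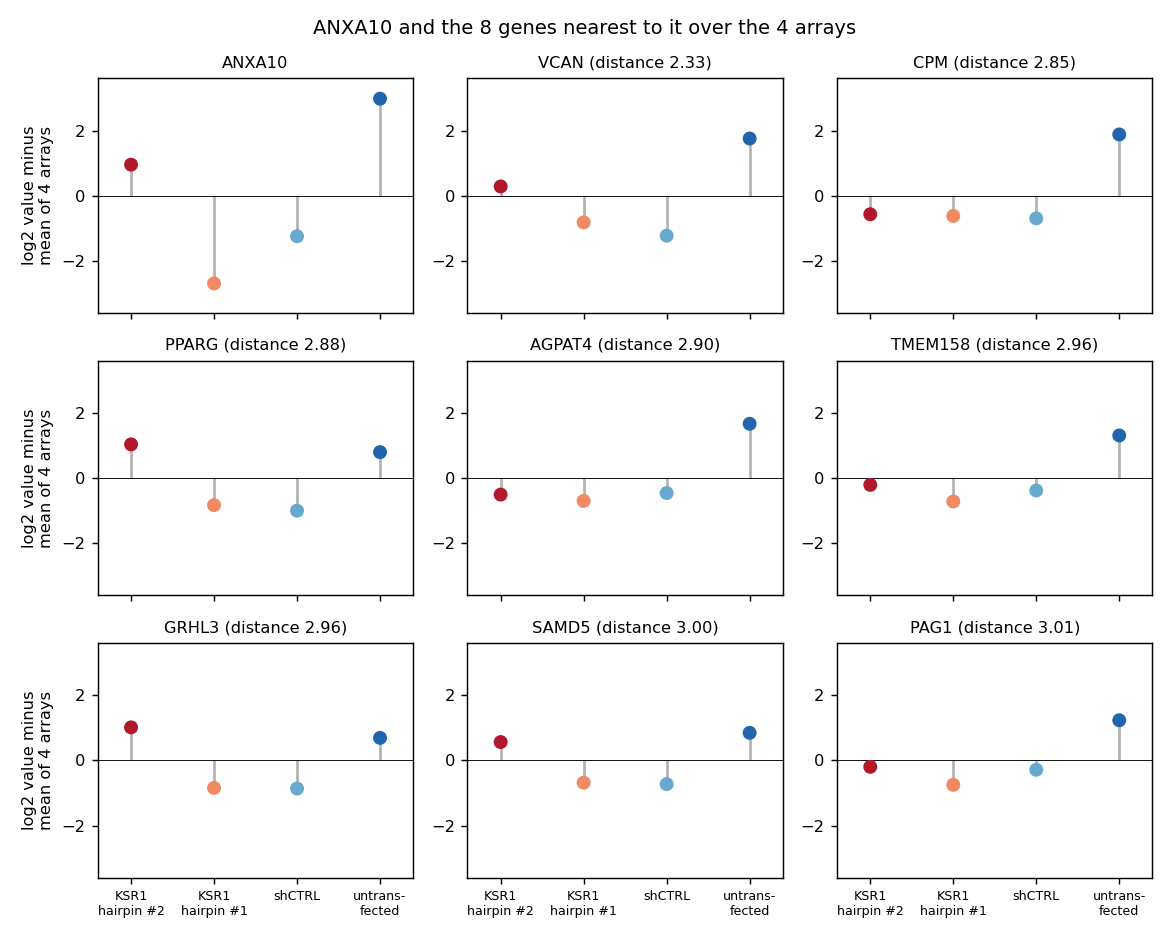
Log2 value minus the gene's mean over the 4 arrays for ANXA10 and the 8 genes nearest to it, with 1 point for each array and the Euclidean distance to ANXA10 in the title. Untransfected cells are highest in ANXA10 and 6 of the 8 genes, PPARG and GRHL3 are highest with hairpin #2, and no gene has the low hairpin #1 point of ANXA10.

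Plasminogen activation, to which the ANXA2 and S100A10 pair contributes, had 8 of 10 list genes analysed. In both KSR1 hairpin arrays 1 was above and 3 below both others, against 22.5% and 18.4% of all genes, with 0 called by limma and a median difference of -0.17, against 0.02 over all genes. The urokinase gene PLAU had 237 with hairpin #2 and 608 with hairpin #1, against 509 in shCTRL and 298 in untransfected cells. The tissue activator PLAT had 205 with hairpin #2 and 187 with hairpin #1, against 435 in shCTRL and 188 in untransfected cells. PLAU was lowest with hairpin #2 and highest with hairpin #1, as ANXA3 was, while PLAT was high in shCTRL alone.

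**Figure D4:**
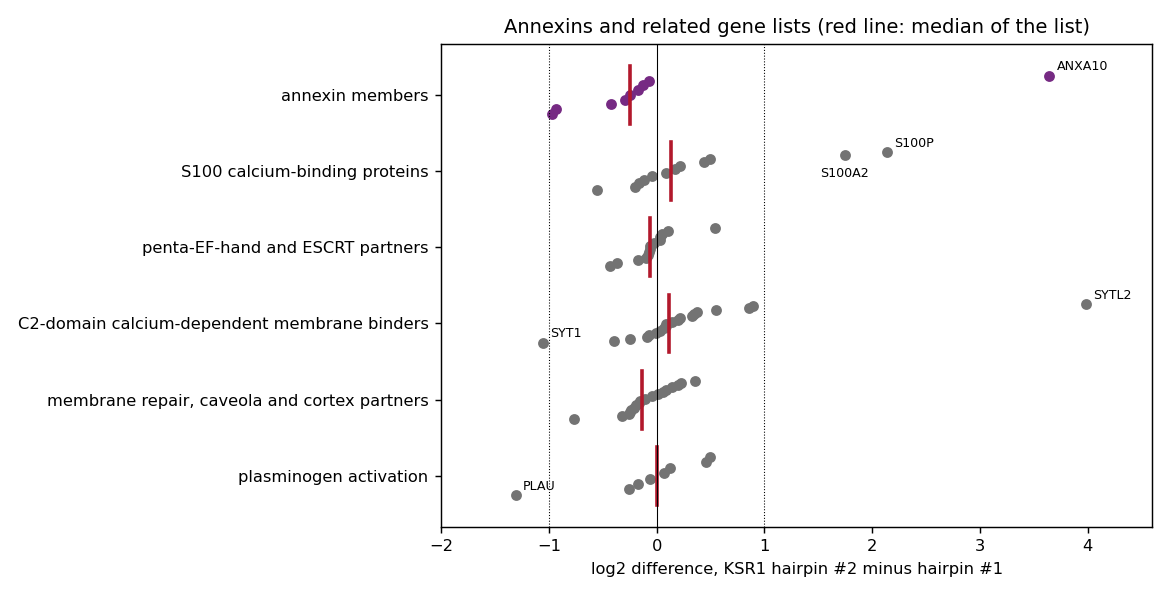
Log2 difference of KSR1 hairpin #2 minus hairpin #1 for the annexins and 5 related gene lists, with 1 point for each gene analysed, a red line at the list median and dotted lines at 1 log2 unit. ANXA10 lies at 3.64 and the other 8 annexins lie below 0, and the S100 genes S100P and S100A2 and the synaptotagmin-like SYTL2 lie above 1, while PLAU at -1.31 and SYT1 at -1.05 lie below -1.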

How the data were processed

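One table was used, with 54675 probe sets on 4 arrays, 1 array for each line. Per the labels' protocols, Trizol RNA was labelled with the 1-cycle kit from 2.5 micrograms. The deposited values were linear intensity values, between 4.72 and 26251. How the authors corrected, summarised and normalized them is not stated in the labels. No further scaling was applied, and no column was left unused.

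Probe sets with 1 symbol (41097) were named from the platform annotation, 41043 matched a RefSeq gene by identifier, and the 1801 with several symbols were left out, 1 of them holding ANXA2. Values became log2(intensity + 16). Pairs of arrays were compared by size, and both hairpin arrays against both others with limma 3.58.1 in R 4.3.3 and Benjamini-Hochberg adjustment over all genes, tested on simulated data. Members and the 12 gene lists were chosen with earlier results of these data known. Named genes are the members, KSR1, the 8 genes nearest ANXA10, up to 4 genes per list by range, S100A10, S100A11, S100A6 and each annexin outside the members. Other genes, EPCAM, KRT18, CDH17, GPA33, LGALS4, S100A5 and S100PBP among them, were named after their values were seen. The planned protein comparison was not made, as no protein sequences were used here. RefSeq promoter windows were found for 9 members, ANXA13 left aside. Alternatives changed the pseudocount, filter, probe set rule, normalization and arrays. On arrays the number of arrays limits the precision.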

Additional observations from a re-analysis of the deposited data

How the results depend on the processing

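ANXA10 kept the direction of all 6 pair differences and stayed past 2-fold under 6 alternatives (pseudocounts of 1 and 64, no filter, a filter at the 75th percentile, the mean over probe sets and quantile normalization). The filter settings and the mean over probe sets could not change its values, as ANXA10 has 1 probe set. Only the pseudocounts and quantile normalization could. The ANXA10 differences lay between -5.95 and -5.02 for hairpin #1 against untransfected cells, and between -1.64 and -1.06 for hairpin #1 against shCTRL, the ends being the 2 pseudocounts. The counts of members past 2-fold were the same under these 6, and the 8 other members stayed lower with hairpin #2 than with hairpin #1. For ANXA4, hairpin #1 minus shCTRL was -0.0579 with the mean over probe sets and -0.0185 with quantile normalization. Its highest array was then shCTRL and not hairpin #1. Members with both KSR1 hairpin arrays above both others numbered 2 with no filter, which adds ANXA13, and 2 with the mean over probe sets, which adds ANXA7. Leaving out 1 array at a time, which makes the rule easier to meet, gave 1 to 7 members above and 1 to 4 below. The matching shares of all genes were not counted. limma called 0 genes under all 10 alternatives, with 569 to 1534 at an unadjusted p under 0.05 and smallest adjusted p between 0.0996 and 0.914. The fitted ANXA11 difference lay between 0.183 and 0.712 and was positive throughout, with limma adjusted p from 0.634 to 0.914. With the mean over probe sets, ANXA11 differed from shCTRL by 0.224 in the hairpin #2 array and by 0.418 in the hairpin #1 array, shCTRL differed from untransfected cells by -0.135, and the last difference was -0.211 for ANXA1. The fitted difference of ANXA1 lay between 0.0222 and 0.427, that of ANXA3 lay between -0.483 and 0.485 and that of ANXA5 between -0.793 and 0.137, so the signs of ANXA3 and ANXA5 depended on the arrays kept. No paired analysis was possible because each group has 1 array. There were no detection calls, so values near the array medians are not told apart from background.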

Other observations

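Among other calcium-dependent membrane binders, the C2-domain proteins, the widest ranges were those of SYTL2, SYT1, SYTL3 and SYT13. Of 27 list genes 20 were analysed, 3 lay above and 4 below both others in both KSR1 hairpin arrays, against 22.5% above and 18.4% below over all genes, and 0 were called by limma. With hairpin #2 14 were higher and 6 lower than with hairpin #1, against 51.3% higher over all genes. SYTL2, a RAB27 effector of secretory vesicles, had 1816 with hairpin #2 and 99.98 with hairpin #1, against 104 in shCTRL and 161 in untransfected cells. SYT1, a calcium sensor of vesicle fusion, had 717 with hairpin #2 and 1505 with hairpin #1, against 2065 in shCTRL and 1195 in untransfected cells. SYTL2 was high with hairpin #2 alone, and SYT1 was lowest there. Among 18 analysed genes of membrane repair, caveolae and the cell cortex, 2 lay above and 6 below both others, against the same 22.5% and 18.4%, and 0 were called by limma. Moesin (MSN) had 752 with hairpin #2 and 1292 with hairpin #1, against 1195 in shCTRL and 1624 in untransfected cells.

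Genes of gastric and intestinal identity were mostly dim, with 6 of 18 analysed, 0 above and 3 below both others in both KSR1 hairpin arrays, against 22.5% and 18.4% of all genes. The median difference was -0.06, against 0.02 over all genes. The gastric mucin MUC5AC lay between 47.0 and 54.0. Of 11 colon epithelial markers 8 were analysed, with 2 above and 1 below, against the same shares. KRT20, a keratin of differentiated intestinal cells, had 275 with hairpin #2 and 52.5 with hairpin #1, against 63.7 in shCTRL and 166 in untransfected cells. Its high arrays were those of hairpin #2 and untransfected cells, as for ANXA10. Unlike ANXA10, it was brighter with hairpin #2 than in untransfected cells. Of the fibroblast markers 3 were analysed, with 0 above and 2 below both others, of the endothelial markers 1, which was below, and of the leukocyte markers 0.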
